A study of Mus musculus with 6 samples.

Results

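The levels of 10 genes that act in the passage from G1 to S phase were described in RNA-seq of 3 peripheral T-cell lymphomas (PTCL) of Dnmt3b+/- mice. The genes were picked by name: the D-type cyclins Ccnd1, Ccnd2 and Ccnd3, the E-type cyclins Ccne1 and Ccne2, the cyclin-dependent kinases Cdk2, Cdk4 and Cdk6, the retinoblastoma gene Rb1 and the transcription factor E2f1. All 10 were found among the 34245 genes of the table. The mice were labelled FVB (FVB/N in the methods) and carried a single conventional knockout allele of the DNA methyltransferase gene Dnmt3b, and tumors were taken from lymph nodes once the animals were terminally sick. Their age was not given in the sources used here. The question behind the samples was which genes are active in lymphomas that arise with reduced Dnmt3b. The 3 tumors are the only RNA-seq group analysed here, so no comparison with normal T cells is made and every difference described is between single tumors.

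In G1, D-type cyclins activate Cdk4 and Cdk6, which begin to phosphorylate the RB protein. RB that is not phosphorylated binds E2F factors and holds their target genes silent. E-type cyclins with Cdk2 complete the phosphorylation, and E2F target genes for DNA replication are then transcribed, among them the E-type cyclins themselves. Lymphocytes mainly use cyclin D2 and cyclin D3, and cyclin D3 with Cdk6 is known for its part in the expansion of immature T cells.

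Levels are in FPKM, in which reads are divided by exon length and by library size. The exon length is that of all annotated exons of a gene merged, which can exceed that of the transcripts expressed. The order of different genes, and shares and ratios between them, depend on this length. Lengths of the expressed transcripts were not measured. Tumor 1 was the deepest library with 30726570 reads, against 18969988 for tumor 2 and 20770928 for tumor 3, as recovered from the table. Between tumors the deposited scale was compared with 3 others: rescaling each tumor to a common sum, median-of-ratios factors, and FPKM relative to Cd3d, Cd3e and Cd3g (the CD3 genes), the last chosen after seeing the data. Intervals given below are exact 95% Poisson intervals on the recovered reads, and they cover counting error only. Of 10 T-cell markers, 10 were above 0.2 FPKM in every tumor. All listed B-cell, myeloid and plasma cell markers passed this level too, so passing it does not check the T-cell label. The share of all genes that passed was not counted. The most abundant T-cell marker was Cd8b1, a chain of the CD8 coreceptor, at 434.7, 166 and 443.4 FPKM in tumors 1, 2 and 3. Of the 10, 4 were highest in tumor 1, 4 in tumor 2 (Cd3e, Cd3g, Cd5 and Lck) and 2 in tumor 3, and the widest spreads among them were those of Cd4, at 28.4, 4.28 and 8.22 FPKM, and Thy1, at 153.9, 24.3 and 31.9 FPKM. These are bulk samples, in which fewer cells of a type and less RNA per cell cannot be told apart.

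Ccnd2 and Cdk4 had the highest mean levels of the 10 genes and Ccnd1 the lowest. Ccnd2 averaged 36.7 ± 14.0 FPKM (SD, n = 3), Cdk4 32.3 ± 3.24 (SD, n = 3) and Ccnd3 22.6 ± 5.37 (SD, n = 3). These were followed by Cdk6 at 9.40 ± 6.73 FPKM, Ccne1 at 7.77 ± 2.84 and Cdk2 at 6.05 ± 2.11 (SD, n = 3 each). E2f1 at 5.35 ± 0.142 FPKM, Rb1 at 5.33 ± 2.57, Ccne2 at 3.44 ± 2.35 and Ccnd1 at 1.61 ± 0.546 came last (SD, n = 3 each). Parts of this order rest on single tumors: without tumor 1 the mean of Cdk6 was 5.57 FPKM, below Ccne1 at 6.16, and that of Ccne2 was 2.14, and without tumor 3 Ccnd2 at 28.9 lay below Cdk4 at 31.8. The places of Cdk2 and E2f1 also changed without tumor 1, and those of Cdk2, E2f1 and Rb1 without tumor 2. Cdk4 was above Ccnd3, and Ccnd3 above Cdk6, in 3 of 3 tumors. The ranges over tumors of Cdk4 and Ccnd3 all but met, with 28.72 FPKM as the lowest Cdk4 and 28.68 as the highest Ccnd3, and they overlapped with median-of-ratios factors and relative to the CD3 genes. Those of Ccnd3 and Cdk6 overlapped relative to the CD3 genes and not on the other scales. All other neighbours overlapped. Ccnd2 was above Cdk4 in 1 of 3 tumors, and E2f1 was above Rb1 in 1 of 3. Of the 10 genes, 9 were above 1 FPKM in every tumor, against 28.4% of all genes. The exception was Ccnd1, at 0.981 FPKM in tumor 3.

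**Figure D1:**
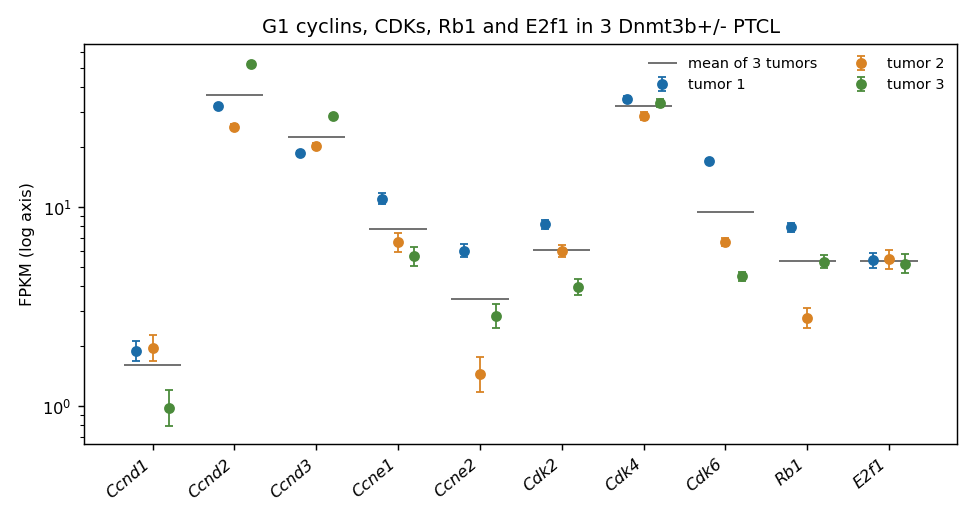
FPKM (log axis) of the 10 genes in each of the 3 Dnmt3b+/- PTCL, with points for tumors, bars for the 95% Poisson interval of the reads and a grey line for the mean. Ccnd2, Cdk4 and Ccnd3 lie above the other genes, and the 3 points of E2f1 lie at nearly the same height.

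Of the D-type cyclins, Ccnd2 had the highest FPKM in each tumor. The merged exons span 9409 bases in Ccnd2 and 8775 in Ccnd3, and which transcripts were in use was not measured. Ccnd2 (ENSMUSG00000000184, mm10 chr6:127125162-127152193, minus strand) had 32.4, 25.4 and 52.4 FPKM in tumors 1, 2 and 3. The value in tumor 3 was 2.07 times that in tumor 2, with intervals from 51.4 to 53.5 and from 24.6 to 26.1. Ccnd3 (ENSMUSG00000034165, chr17:47505051-47599691, plus strand) had 18.7, 20.3 and 28.7 FPKM in tumors 1, 2 and 3. Tumor 3 thus held the highest level of both genes, and it did so under each scaling tried, while the lowest tumor for Ccnd3 was tumor 1 or, after rescaling to a common sum or relative to the CD3 genes, tumor 2. Ccnd2 made up 61.1%, 53.3% and 63.9% of the summed FPKM of D-type cyclins in tumors 1, 2 and 3. Ccnd3 made up 35.3%, 42.6% and 34.9%, a mean of 37.6% ± 4.34 (SD, n = 3).

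Markers of B cells, which also use cyclin D2 and cyclin D3, were mostly highest in tumor 3 as well. All 6 B-cell markers were above 0.2 FPKM in every tumor, 5 of them were highest in tumor 3 and Cd22 was highest in tumor 2. Their summed level was 62.1, 50.2 and 117.5 FPKM in tumors 1, 2 and 3. The most abundant, Cd79a, part of the B-cell receptor, had 23.1, 7.31 and 49.0 FPKM. The tumors stood in the same order for Ccnd2, for Cd79a and for this sum, and the part of B cells in the Ccnd2 level was not tested.

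Ccnd1 contributed 3.58%, 4.11% and 1.20% of D-type cyclin FPKM in tumors 1, 2 and 3. Ccnd1 (ENSMUSG00000070348, chr7:144929931-144939925, minus strand), the D-type cyclin of many epithelial and mesenchymal cells, had 1.89, 1.96 and 0.981 FPKM in tumors 1, 2 and 3, which rest on 274, 175 and 96 reads. The interval of tumor 3, 0.795 to 1.20 FPKM, did not reach those of the other tumors, which overlapped each other. Tumor 3 was lowest under each scaling, and the highest was tumor 2 or, after rescaling to a common sum or relative to the CD3 genes, tumor 1. Of the exon bases of Ccnd1, 23.4% are shared with the opposite-strand gene LTO1, which had 3.21, 3.33 and 2.81 FPKM, and the strand used in counting is not given in the sources used here, so reads of the pair cannot be told apart there.

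Markers of fibroblasts and of pancreatic acinar cells were also lowest in tumor 3. Fibroblast markers, of which 1 of 6 was above 0.2 FPKM in every tumor, summed to 10.5, 42.6 and 0.353 FPKM in tumors 1, 2 and 3. Their most abundant gene, the collagen gene Col1a1, had 1.63, 15.5 and 0.315 FPKM, and Pdgfra had no read in tumor 3. Pancreatic acinar markers, of which 0 of 8 were above 0.2 FPKM in every tumor, summed to 87.0, 440.3 and 0.657 FPKM, with Ctrb1 most abundant and at 0 reads in tumor 3, as was Cpa1. The part of such cells in the level of Ccnd1 was not tested.

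Both E-type cyclins were highest in tumor 1 under each scaling. Ccne1 (ENSMUSG00000002068, chr7:38097984-38107534, minus strand) had 11.003, 6.65 and 5.66 FPKM in tumors 1, 2 and 3. The intervals of tumors 2 and 3 overlapped, except after rescaling to a common sum, while tumor 1 stood apart at 10.3 to 11.7 FPKM. Ccne2 (ENSMUSG00000028212, chr4:11191351-11204779, plus strand) had 6.03, 1.45 and 2.84 FPKM, from 648, 96 and 206 reads. Its highest tumor was 4.17 times its lowest, the widest spread of the 10 genes, and no pair of tumors had overlapping intervals. Ccne1 was the larger part of the pair in each tumor, with 64.6%, 82.1% and 66.6% of their summed FPKM. Of the Ccne2 exon bases, 17.4% are shared with Ints8 on the opposite strand, which had 4.54, 2.70 and 3.81 FPKM.

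D-type and E-type cyclins therefore stood in different proportion in each tumor. Summed D-type cyclin FPKM was 52.9, 47.6 and 82.1 in tumors 1, 2 and 3. Summed E-type cyclin FPKM was 17.0, 8.10 and 8.50. The D-type sum was 3.11 times the E-type sum in tumor 1, 5.88 times in tumor 2 and 9.66 times in tumor 3, a mean of 6.22 ± 3.29 (SD, n = 3). This ratio was chosen after its values were seen. It is taken within a tumor, so scale factors between tumors cancel in it.

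**Figure D2:**
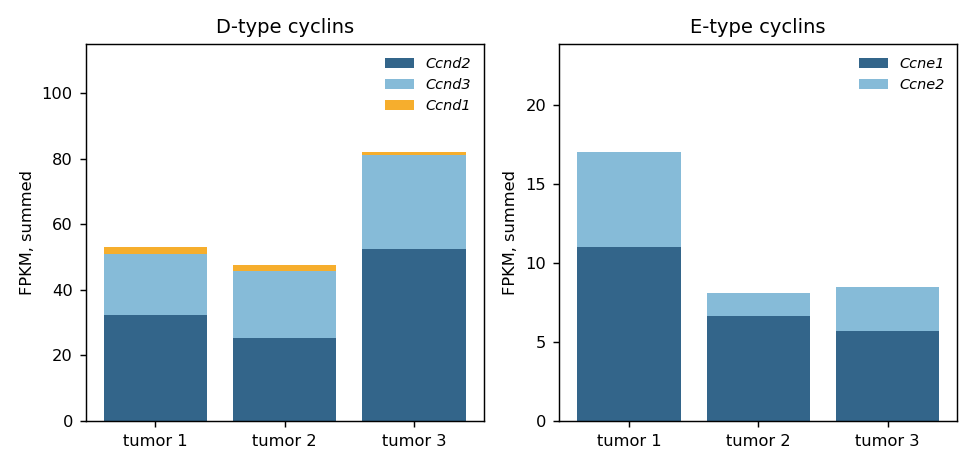
Summed FPKM of the D-type cyclins (left) and the E-type cyclins (right) in each tumor, stacked by gene, with an axis of its own for each panel. The D-type sum is highest in tumor 3 at 82.1 FPKM and the E-type sum in tumor 1 at 17.0 FPKM.

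The kinases differed in how even they were. Cdk4 (ENSMUSG00000006728, chr10:127063534-127067920, plus strand) had 35.0, 28.7 and 33.3 FPKM in tumors 1, 2 and 3, a highest tumor 1.22 times the lowest. The intervals of tumors 1 and 3 overlapped on this scale only, and with median-of-ratios factors tumor 3 took the place of tumor 1 as the highest. Cdk6 (ENSMUSG00000040274, chr5:3341485-3531008, plus strand), the other partner of D-type cyclins, had 17.1, 6.66 and 4.47 FPKM. Its value in tumor 1 was 3.82 times that in tumor 3, and tumor 1 was highest under each scaling. Cdk4 thus made up 67.2% of the summed FPKM of Cdk4 and Cdk6 in tumor 1, 81.2% in tumor 2 and 88.2% in tumor 3, a mean of 78.8% ± 10.7 (SD, n = 3). By recovered reads, which are not scaled to length, the mean share of Cdk4 was 48.5%, as the exons of Cdk6 span 13989 bases and those of Cdk4 3249. Of the Cdk4 exon bases, 19.7% are shared with the opposite-strand gene Tspan31, at 14.2, 1.56 and 9.22 FPKM.

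Cdk2 (ENSMUSG00000025358, chr10:128697939-128705031, minus strand), the partner of E-type cyclins, was highest in tumor 1 under each scaling, with 8.18, 6.01 and 3.96 FPKM in tumors 1, 2 and 3. No pair of tumors had overlapping intervals. Summed Cdk4 and Cdk6 was 6.36, 5.89 and 9.53 times Cdk2 in tumors 1, 2 and 3, a ratio also chosen after its values were seen.

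Myeloid markers were mostly highest in tumor 1, which under each scaling also held the highest Cdk2, Cdk6, Ccne1, Ccne2 and Rb1. All 6 myeloid markers were above 0.2 FPKM in every tumor, and 5 of them were highest in tumor 1, with Cd68 highest in tumor 2. They summed to 266.2, 90.4 and 33.4 FPKM in tumors 1, 2 and 3. The most abundant, the lysozyme gene Lyz2, had 215.2, 33.1 and 20.3 FPKM. Erythroid markers, of which 4 of 6 were above 0.2 FPKM in every tumor, summed to 202.4, 38.4 and 4.76 FPKM, with Hba-a1 most abundant. Plasma cell markers, 4 of 4 above 0.2 FPKM in every tumor, summed to 862.5, 199.4 and 216.7 FPKM, with Jchain most abundant at 814.2, 185.1 and 178.6, while Mzb1 at 11.004, 2.62 and 25.8 and Sdc1 at 0.957, 0.595 and 1.09 were highest in tumor 3. Cdk2, Cdk6 and Ccne1 were lowest in tumor 3, as were the myeloid and erythroid sums, and Ccne2 and Rb1 were lowest in tumor 2, in which 5 of the 10 T-cell markers were lowest and 4 highest. The part of these cells and of depth in the levels of the 5 genes was not tested. Epithelial markers summed to 14.2, 2.78 and 0.937 FPKM with 2 of 5 above 0.2 FPKM in every tumor, Cdh1 most abundant at 13.7, 0.934 and 0.410, Epcam, Krt8 and Krt18 highest in tumor 2 and Krt19 without a read in any tumor, and endothelial markers to 13.6, 13.0 and 5.14 FPKM with 1 of 5, Pecam1.

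Rb1 and E2f1 had nearly the same mean level but very different spread. Rb1 (ENSMUSG00000022105, chr14:73183673-73325822, minus strand), which encodes the RB protein, had 7.91, 2.77 and 5.31 FPKM in tumors 1, 2 and 3. Tumor 1 was 2.86 times tumor 2 and was highest under each scaling, and no pair of tumors had overlapping intervals. E2f1 (ENSMUSG00000027490, chr2:154559407-154569892, minus strand) had 5.39, 5.47 and 5.19 FPKM, a highest tumor 1.05 times the lowest, with all intervals overlapping. With median-of-ratios factors all intervals of E2f1 overlapped too, at levels of 4.88, 5.58 and 5.52 in tumors 1, 2 and 3. The highest was then 1.14 times the lowest. Overlap of intervals is not a test of a difference. On the other scales tumor 1 was highest: after rescaling to a common sum it was 1.23 times tumor 3 and relative to the CD3 genes 1.36 times, without overlap of their intervals, and on the latter scale tumor 1 also stood apart from tumor 2. Rb1 was 1.47 times E2f1 in tumor 1, 0.507 times in tumor 2 and 1.02 times in tumor 3. Of the Rb1 exon bases, 8.11% are shared with Rcbtb2 and 6.78% with Lpar6, both on the opposite strand. Rcbtb2 had 11.1, 36.5 and 9.72 FPKM, highest in the tumor with the lowest Rb1, and Lpar6 had 4.65, 3.09 and 6.10 FPKM, lowest in that tumor. Ccnd2 shares 7.86% of its exon bases with opposite-strand genes, of which Gm43126 had 32.8, 17.2 and 32.9 FPKM and 9330179D12Rik 0.307, 0.248 and 0.389. Smaller overlaps with opposite-strand exons were found for Ccnd3 at 4.11%, Cdk6 at 2.63% and Cdk2 at 0.547%.

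Spread between tumors was set against all genes. Of the 10 genes, 5 had a highest tumor at least 2 times the lowest, against 34.4% of the 11190 genes with a mean of at least 1 FPKM. The 5 were Ccne2, Cdk6, Rb1, Ccnd2 and Cdk2. Just inside the threshold lay Ccnd2 at 2.07 and Cdk2 at 2.06, and just outside it Ccnd1 at 1.996 and Ccne1 at 1.94. The median ratio was 2.03 over the 10 genes and 1.68 over the 11190. The count was 1 without tumor 1, 3 without tumor 2 and 3 without tumor 3, where the share of all genes was 16.4%, 17.7% and 25.3%. Between tumors 2 and 3, Ccnd1 at 1.996, Ccne2 at 1.96 and Rb1 at 1.92 lay just under the threshold.

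**Figure D3:**
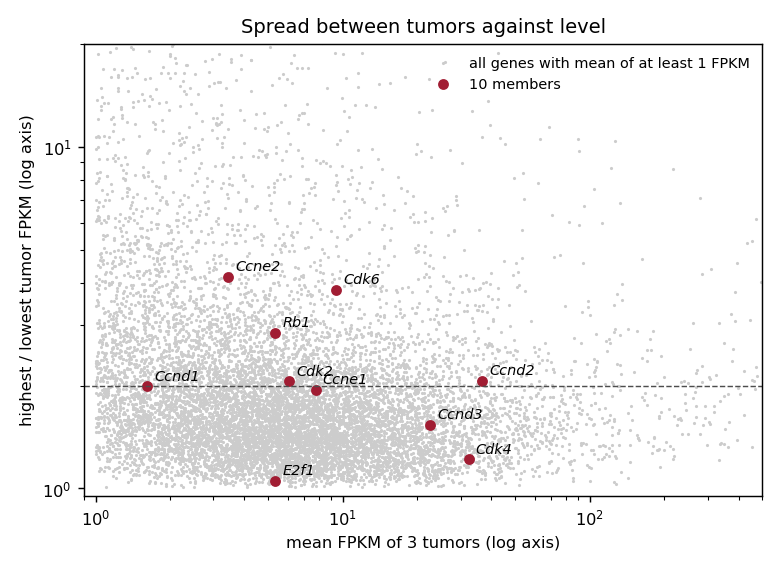
Ratio of the highest to the lowest tumor FPKM against the mean FPKM of 3 tumors, both on log axes, for the 10 members in red and all genes with a mean of at least 1 FPKM in grey; genes beyond the axes are not drawn and the dashed line marks a ratio of 2. Ccne2 at 4.17 and Cdk6 at 3.82 lie highest among the members and E2f1 at 1.05 lowest.

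Tumor 1 held the highest level of 6 of the 10 genes, against 50.6% of the 11190 genes, so this share is near the background. The 6 were Ccne1, Ccne2, Cdk2, Cdk4, Cdk6 and Rb1. Tumor 3 was highest for 2, Ccnd2 and Ccnd3, against 15.7% of all genes, and without tumor 1 it was highest for 5 of the 10, against 45.8% of all genes. Tumor 3 was lowest for 5 of the 10, against 37.4% of all genes. On the log2 scale relative to each gene's own mean, the median of all genes stood at 0.14 in tumor 1, -0.03 in tumor 2 and -0.09 in tumor 3. Cdk6 in tumor 1 stood at 1.10 on this scale, Ccne2 at 1.05, Rb1 at 0.70, Ccne1 at 0.56 and Cdk2 at 0.50, each above that median, as was Ccnd1 at 0.30. Cdk4 at 0.12, E2f1 at 0.01, Ccnd2 at -0.12 and Ccnd3 at -0.25 lay below it in the same tumor. Median-of-ratios factors brought the median of all genes to 0.01 in each tumor, and 5 of the 10 genes were then highest in tumor 1, against 36.9% of all genes, with Cdk4 no longer among them.

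**Figure D4:**
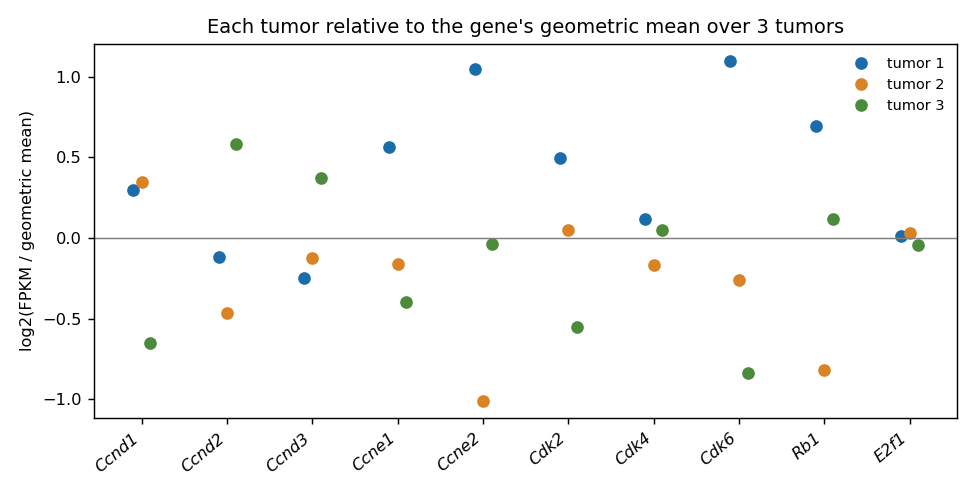
FPKM of each tumor relative to the geometric mean of the gene over the 3 tumors, on a log2 scale, with a point for each tumor. Ccnd2 and Ccnd3 are highest in tumor 3, while Ccne1, Ccne2, Cdk2, Cdk6 and Rb1 are highest in tumor 1.

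The gene with the widest spread, Ccne2, was compared with all others for its pattern over the 3 tumors. By Euclidean distance of centred log2(FPKM + 0.1), the 5 nearest of 11189 genes were Cry1, Gm43203, Gm28501, Gm38253 and Nek7. Cry1, a repressor of the circadian clock, had 6.20, 1.45 and 2.88 FPKM in tumors 1, 2 and 3, at a distance of 0.024. Nek7, a kinase, had 19.0, 5.01 and 8.75 FPKM. In all, 49 genes lay within 0.25, and over 3 samples such likeness is a description only.

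Genes around the RB pathway were described by 6 lists with 65 genes. Of these, 63 were above 0.2 FPKM in every tumor, a level at which the share of all genes was not counted. At 1 FPKM in every tumor it was 58, against 28.4% of all genes. A mean of at least 1 FPKM was held by 61 of the 65, against 11190 of 34197 genes. In the RB and E2F family, 8 of 9 genes with a mean of at least 1 FPKM were highest in tumor 1 (50.6% of the 11190 genes), or 5 of 9 with median-of-ratios factors (36.9%), and 3 of 9 had a highest tumor at least 2 times the lowest (34.4%). That last count was 6 after rescaling to a common sum (39.4% of all genes), 1 with median-of-ratios factors (32.5%) and 6 relative to the CD3 genes (47.1%). Without tumors 1, 2 and 3 it was 1, 2 and 1 (16.4%, 17.7% and 25.3% of all genes). E2f4, an E2F that acts mainly as a repressor with RB relatives, was the most abundant at 27.2, 35.2 and 28.3 FPKM and was highest in tumor 2, or in tumor 1 relative to the CD3 genes. E2f8, an atypical repressor, had the widest spread at 3.96, 2.74 and 1.18 FPKM, and Tfdp2, an E2F partner, the lowest mean at 0.485 ± 0.224 FPKM (SD, n = 3).

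Of the 5 CDK inhibitors with a mean of at least 1 FPKM, 4 were lowest in tumor 2 under each scaling, against 38.3% of all genes on the deposited scale and 34.3%, 37.0% and 42.9% after rescaling, with median-of-ratios factors and relative to the CD3 genes. Cdkn2a, which encodes inhibitors of Cdk4 and Cdk6 and of Mdm2, had 7.22, 0.0900 and 9.08 FPKM in tumors 1, 2 and 3, with 260, 2 and 221 reads behind them. The tumor with next to no Cdkn2a reads was also the one with the lowest Rb1. Tumor 2 was lowest for 4 of the 10 members, Rb1 among them, against 38.3% of all genes. A link between Cdkn2a and Rb1 was not tested. Cdkn1b, the inhibitor of Cdk2 complexes known as p27, was the most abundant at 32.7, 19.0 and 27.2 FPKM, and Cdkn1c the least, with 5, 5 and 0 reads. Of the 5, out of 7 listed, 3 had a highest tumor at least 2 times the lowest (all genes 34.4%). The count was 5 relative to the CD3 genes (47.1%) and 0 without tumor 2 (17.7%). The median of the 5 stood at -0.97 in tumor 2 on the log2 scale relative to the mean. Of the B-cell markers 5 of 6 were also lowest in tumor 2, with a median of -1.52 there on the same scale, as were 5 of 10 T-cell markers, and the sums of pancreatic acinar markers at 440.3 FPKM and of fibroblast markers at 42.6 FPKM were highest in it. Cdkn2a and Cd79a had the same order of tumors on the deposited scale, and the part of such cells in the inhibitor levels was not tested.

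Among 9 genes of CDK activation and cyclin turnover, 7 were highest in tumor 1 (all genes 50.6%), or 4 with median-of-ratios factors (36.9%), and 2 had a ratio of at least 2 (34.4%). The latter count was 1 to 5 under other scalings (32.5% to 47.1% of all genes) and 0 without tumor 1 or tumor 3 (16.4% and 25.3%). Cks1b, a CDK subunit that helps degrade p27, was the most abundant and the most uneven at 26.0, 15.8 and 9.49 FPKM. Skp2, the ubiquitin ligase subunit it works with, had the lowest mean, at 1.47, 1.06 and 0.691 FPKM. Of the 6 genes of the MuvB core and B-Myb, which assemble with RB relatives or with B-Myb, 5 were highest in tumor 1, or 3 with median-of-ratios factors, and 3 had a ratio of at least 2, beside the same 3 shares of all genes. Relative to the CD3 genes 5 of the 6 had such a ratio (47.1% of all genes), and without tumor 1 only 1 had (16.4%). Rbbp4 was the most abundant at 19.1, 12.4 and 17.2 FPKM, Lin9 had the lowest mean at 1.19 ± 0.711 (SD, n = 3), and Mybl2, which encodes B-Myb, had the widest spread at 3.55, 3.36 and 1.26.

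Most of the E2F target genes of S phase, and most genes of mitosis, were highest in tumor 1 and lowest in tumor 3. Of 20 S phase genes, 15 were highest in tumor 1 (all genes 50.6%), or 12 with median-of-ratios factors (36.9%), and 4 had a ratio of at least 2 (34.4%), with a median ratio of 1.56 (1.68). The count of 4 was 7 after rescaling to a common sum (39.4%), 3 with median-of-ratios factors (32.5%) and 10 relative to the CD3 genes (47.1%). Without tumors 1, 2 and 3 it was 0, 3 and 2 (16.4%, 17.7% and 25.3% of all genes). Lowest in tumor 3 were 15 of the 20 (37.4%), or 16 after rescaling to a common sum (50.5%), 12 with median-of-ratios factors (26.9%) and 16 relative to the CD3 genes (46.8%). Pcna, the sliding clamp of DNA polymerase, was the most abundant at 88.0, 55.9 and 63.6 FPKM, and Ung had the lowest mean at 2.60 ± 0.563 (SD, n = 3). Cdc6, which loads the replicative helicase, had the widest spread at 6.63, 3.61 and 2.55 FPKM. Of 12 genes of G2 and mitosis, 12 were highest in tumor 1 (all genes 50.6%) and 12 were lowest in tumor 3 (37.4%), and 11 had a ratio of at least 2 (34.4%), with a median ratio of 2.82 (1.68). The count of 11 was 10 to 12 under other scalings. It was 3, 11 and 5 without tumors 1, 2 and 3 (16.4%, 17.7% and 25.3% of all genes). With median-of-ratios factors 10 of the 12 were highest in tumor 1, while 12 of 12 were lowest in tumor 3 under each scaling, beside the shares of all genes just given, which ran from 26.9% to 50.5%. Mki67, the marker of cycling cells, was the most abundant at 38.7, 30.4 and 12.0 FPKM. Ccnb1, the mitotic cyclin, had the widest spread at 7.81, 2.81 and 1.76 FPKM, and Bub1 the lowest mean at 3.93 ± 2.57 (SD, n = 3). Summed myeloid markers, at 266.2, 90.4 and 33.4 FPKM, and erythroid markers, at 202.4, 38.4 and 4.76 FPKM, were likewise highest in tumor 1 and lowest in tumor 3, and the part of such cells in the mitosis genes was not tested.

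**Figure D5:**
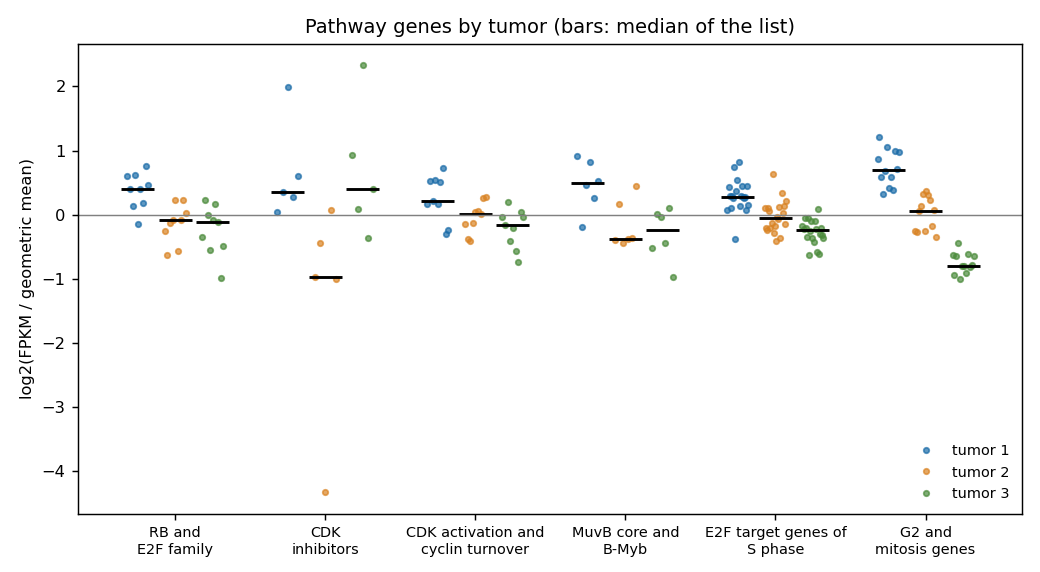
FPKM of each tumor relative to the gene's geometric mean over the 3 tumors, on a log2 scale, for genes of 6 pathway lists with a mean of at least 1 FPKM, with a point for each gene and a bar for the median of the list. The lowest point, in the CDK inhibitors of tumor 2, is Cdkn2a at 2 reads, and the G2 and mitosis genes have medians of 0.70, 0.06 and -0.79 in tumors 1, 2 and 3.

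The promoters of 6 of the 10 genes were matched in the table of RefSeq promoters (GRCm38.p6) used here, with 7 starts in all, as 250 bases before to 50 bases after a start. Those of Ccnd1, Ccnd2, Ccne2 and Rb1 were not matched. The starts of E2f1 and Cdk6 lie 466 and 2408 bases inside the gene as the expression table bounds it, and the downstream start of Ccnd3 88416 bases inside, so these windows are not upstream of the whole gene. Both strands were searched for the E2F motif in the forms TTTCCCGC, TTTCGCGC, TTTGCCGC and TTTGGCGC. A match was found in 1 of the 7 windows, that of Cdk2, and in 2.26% of all 32851 promoters. It reads GCGGGAAA, the reverse complement of TTTCCCGC, and begins 140 bases before the start. Shown are genes that were highest in tumor 1 under each scaling (Cdk2, Ccne1 and Cdk6), with the motif in capitals. Both starts of Ccnd3, which was highest in tumor 3, are given as well, and like the windows of Ccne1 and Cdk6 they had no match. The windows of Cdk4, which was highest in tumor 1 on the deposited scale, and of E2f1 had no match and are not shown. Those shown lie on mm10 at chr10:128705002-128705301 (minus strand) for Cdk2, chr7:38107441-38107740 (minus strand) for Ccne1, chr5:3343643-3343942 (plus strand) for Cdk6, and chr17:47504801-47505100 and chr17:47593217-47593516 (plus strand) for the upstream and the downstream start of Ccnd3.
Cdk2: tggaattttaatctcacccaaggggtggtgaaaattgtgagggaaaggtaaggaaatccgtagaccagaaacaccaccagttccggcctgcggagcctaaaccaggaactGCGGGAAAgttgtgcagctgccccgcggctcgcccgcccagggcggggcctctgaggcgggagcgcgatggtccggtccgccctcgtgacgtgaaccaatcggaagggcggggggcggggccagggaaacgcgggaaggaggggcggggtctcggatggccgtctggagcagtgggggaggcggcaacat
Ccne1: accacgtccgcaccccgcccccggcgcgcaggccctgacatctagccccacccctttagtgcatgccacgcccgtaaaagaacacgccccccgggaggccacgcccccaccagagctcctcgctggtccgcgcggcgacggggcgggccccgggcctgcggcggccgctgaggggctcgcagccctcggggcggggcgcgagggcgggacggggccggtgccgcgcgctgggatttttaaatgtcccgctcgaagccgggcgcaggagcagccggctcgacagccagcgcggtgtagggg
Cdk6: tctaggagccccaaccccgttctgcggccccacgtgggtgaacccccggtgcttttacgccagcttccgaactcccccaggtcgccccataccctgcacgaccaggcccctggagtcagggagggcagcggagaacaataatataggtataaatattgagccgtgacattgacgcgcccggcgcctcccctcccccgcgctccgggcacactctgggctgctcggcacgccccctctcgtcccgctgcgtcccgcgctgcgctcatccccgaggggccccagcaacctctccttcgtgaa
Ccnd3 upstream start: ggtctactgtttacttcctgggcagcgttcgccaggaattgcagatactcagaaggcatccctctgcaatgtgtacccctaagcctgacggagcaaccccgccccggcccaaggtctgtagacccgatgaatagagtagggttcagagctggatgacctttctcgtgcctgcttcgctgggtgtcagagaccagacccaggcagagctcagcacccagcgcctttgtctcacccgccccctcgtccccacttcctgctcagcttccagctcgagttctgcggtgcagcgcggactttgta
Ccnd3 downstream start: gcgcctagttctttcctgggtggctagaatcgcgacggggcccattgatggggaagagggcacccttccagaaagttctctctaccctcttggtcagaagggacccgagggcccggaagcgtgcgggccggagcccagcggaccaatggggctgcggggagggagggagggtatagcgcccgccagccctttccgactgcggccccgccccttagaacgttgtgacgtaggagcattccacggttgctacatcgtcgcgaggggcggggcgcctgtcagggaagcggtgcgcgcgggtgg

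For comparison, 7 of 19 promoters of the S phase list held the motif, 6 of 13 of the RB and E2F family and 1 of 10 of the G2 and mitosis list. In the other pathway lists it was 1 of 9 for the CDK inhibitors, 1 of 11 for CDK activation and cyclin turnover and 1 of 6 for MuvB core and B-Myb. A match is a string of letters in this window, and its use in these tumors was not measured.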

How the data were processed

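RNA-seq of 3 Dnmt3b+/- PTCL was used, and the 3 samples with whole-genome bisulfite sequencing were not analysed here. The authors aligned trimmed paired-end reads to mm10 with STAR, quantified them with SeqMonk and deposited FPKM per gene and tumor on a linear scale. The labels and the methods name different Illumina instruments for these libraries. The authors' notes also name DESeq2, which was not used here, as FPKM are not counts.

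The members and gene lists were chosen with earlier results of these data known. Library depth was derived from genes at 0 reads, to which the table gives the value of 0.9 read, and reads were recovered with merged exon lengths of GENCODE M21 for 34125 of 34245 genes. Values within 0.02 of a whole number were called whole, which held for 92.2% of genes in each tumor and for all members. Where a symbol was repeated, in 48 rows, the gene with the highest mean was kept, and no listed gene was affected. Named were all members, the genes of highest mean, lowest mean and highest ratio in each pathway list, the 5 genes nearest to the member of highest ratio, and the most abundant gene of each marker list. Other genes were named after their values were seen. No test was made, since the 3 tumors form the only group.

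Alternatives were rescaling to a sum of 1000000, median-of-ratios factors, other thresholds, pseudocounts and filters, and each tumor left out. Scaling to the CD3 genes, and all alternatives for the pathway lists highest in tumor 1, for members highest in tumor 3, for the order and the intervals of member levels, for list genes by lowest tumor or by ratio and for the ratio of D-type to E-type cyclins, were chosen after seeing the data. Depth, read recovery and ratio calls were tested on simulated data. Calculations were done in Python 3.11.15 with NumPy 2.4.6 and pandas 2.3.3, intervals with SciPy 1.17.1, and figures with matplotlib 3.10.9.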

Additional observations from a re-analysis of the deposited data

How the results depend on the processing

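No paired analysis was possible because a single RNA-seq group was analysed and no result comes from a test. The count of members with a highest tumor at least 2 times the lowest was 5, against 34.4% of all genes. It was 4 to 7 under other scalings and pseudocounts, and the share of all genes 32.5% to 47.1% under other scalings. By construction it was 8 at a threshold of 1.5 and 2 at a threshold of 3. Shares of all genes were not counted at these thresholds, and the median ratio of all genes was 1.68. With each tumor left out the count ranged from 1 to 3, and the share of all genes from 16.4% to 25.3%. Members highest in tumor 1 numbered 5 to 8 under other scalings and with tumor 2 or 3 left out. With a tumor left out, the share of all genes highest in tumor 1 was not counted. The share of all genes highest in tumor 1 was 28.4% with no filter, where genes without a read enter, and 36.9% to 70.9% under other scalings. Members highest in tumor 3 numbered 2 to 5 with a tumor left out. The share of all genes highest in tumor 3 was counted only without tumor 1, at 45.8%. With median-of-ratios factors, genes highest in tumor 1 numbered 5 in the RB and E2F family, 4 in CDK activation and cyclin turnover and 3 in MuvB core and B-Myb, against 8, 7 and 5. The share of all genes was then 36.9%, against 50.6%. CDK inhibitors highest in tumor 1 numbered 3 without tumor 2 and 5 without tumor 3, settings in which the share of all genes was not counted. Genes with a highest tumor at least 2 times the lowest numbered 3 in the RB and E2F family, 2 in CDK activation and cyclin turnover and 4 in S phase, but 6, 4 and 7 after rescaling, 6, 5 and 10 relative to the CD3 genes and, in the former pair, 1 each with median-of-ratios factors. Relative to the CD3 genes they were 5 in the CDK inhibitors and 5 in MuvB core and B-Myb, against 3 in each. With a tumor left out they ranged from 1 to 2 in the RB and E2F family, 0 to 3 in the CDK inhibitors, 0 to 2 in CDK activation and cyclin turnover, 1 to 3 in MuvB core and B-Myb, 0 to 3 in S phase and 3 to 11 in G2 and mitosis. Members above 5 FPKM in every tumor numbered 5, and the share of all genes at that threshold was not counted. The mean share of Cdk4 was 48.5% by recovered reads, since these are not scaled to length. With only the motif forms that end in GCGC, 0 member promoters matched. Rescaling multiplied member means by 4.80 to 5.06. Of the alternative values of counts, shares and ratios, 104 stayed within 1.5 times or 1 SD and 36 did not. The search of cyclin proteins for an RB-binding motif was not run. Levels of genes with few reads, as Cdkn2a in tumor 2 and Cdkn1c, are limited by depth.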
